A study of Mus musculus with 2 samples.

Results

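Nuclear receptor genes were examined for EP300 occupancy in the newborn mouse liver. The set held 42 of the 21829 protein-coding genes of GENCODE mouse release M21, taken by name from the nuclear receptor family: thyroid hormone and retinoid receptors, RXR partners, lipid and bile acid sensors, xenobiotic and vitamin D receptors, steroid receptors, estrogen-related receptors, NR4A receptors and other orphan receptors. The clock receptors Nr1d1 and Nr1d2 and the receptor genes Hnf4a and Nr0b1 were outside the set and served for comparison. For each member, peak summits were collected within 10 kb, and separately within 50 kb, of any of its protein-coding transcription start sites (TSSs).

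Chromatin immunoprecipitation sequencing (ChIP-seq) with an EP300 antibody was done on liver of B6NCrl mice at age 0 days, sex not collected, with no genetic change or treatment named. The labels give 1 group of 2 replicates, which carry 1 common biosample label and 1 common donor label, so the spread between them may be technical. Peaks came from the optimal list of the authors' irreproducible discovery rate (IDR) procedure, which compares peak ranks between lists. It held 26844 peaks on chromosomes 1 to 19, X and Y of build mm10, of which 1094 overlapped no peak of replicate 2 and 49 none of replicate 1. Peak strength is the authors' signal value, whose scale is not stated, with a median of 38.3 and a range of 7.32 to 633 over the list. Read depth is unknown, and every interval below covers the counting of genes or peaks only.

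Nuclear receptors are transcription factors, many of them switched by small lipid-soluble ligands. They bind DNA at the hexamer AGGTCA or a close relative of it, alone, as homodimers or as heterodimers with a retinoid X receptor (RXR), and spacing and orientation of paired hexamers set which dimer binds. Without agonist several of them hold corepressor complexes, and with agonist they recruit coactivators, among them the acetyltransferase EP300. In liver they govern bile acid and cholesterol balance, fatty acid oxidation and detoxification. The liver of a newborn mouse still houses blood-forming cells beside its hepatocytes.

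Marker genes of both cell kinds had summits. The marker lists were chosen with earlier results of these data known. A summit lay within 10 kb of 9 of 10 hepatocyte marker genes, with a median strongest signal of 54.8, and of 10 of 10 erythroid marker genes, with a median of 248. Sinusoidal endothelium markers had 5 of 6 and stellate cell markers 3 of 6. Kupffer cell, bile duct and skeletal muscle markers had 0 of 6 each within 10 kb and 2 of 6 each within 50 kb. Of the genes outside the receptor set, 38.1% had a summit within 10 kb, with a median strongest signal of 49.55, and 64.4% within 50 kb. Sets of 6 genes are too small to tell these counts from those shares. In whole tissue, a peak in few cells and weak occupancy in many cells cannot be told apart.

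A larger share of nuclear receptor genes than of other genes had an EP300 summit near a TSS, and the median strength of those summits was lower. Within 10 kb, 23 of 42 members had a summit (54.8%, 95% Clopper-Pearson interval 38.7 to 70.2), against 38.1% of the 21787 other protein-coding genes. Within 50 kb, 31 of 42 members had one (73.8%, interval 58.0 to 86.1), against 64.4% of other genes. The other genes' share lay just below the interval at 10 kb and inside it at 50 kb, and at 10 kb it lay inside the interval in 7 of 9 alternatives, among them the conservative list and the highest peaks of each replicate alone. The strongest summit within 10 kb had a median signal of 40.0 over the 23 members and 49.55 over the other genes with a summit. Within 50 kb the medians were 61.2 for 31 members and 65.9 for other genes.

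Few of the strongest peaks of the liver stood at these genes. A peak of the top 10% of the list, with a signal of at least 121.8, lay within 10 kb of 1 of 42 members (2.38%), Rxra, against 5.8% of other genes. Within 50 kb, 4 of 42 members had one (9.52%), against 16.4% of other genes, and these were Rara, Rxra, Esrra and Nr2e1. Both shares' intervals, 0.0603 to 12.6% and 2.66 to 22.6%, contained the other genes' shares. Several summits at a gene were found at 11 members with 2 or more within 10 kb (26.2%, interval 13.86 to 42.04), against 18.7% of other genes. At 4 members there were 4 or more (9.52%, interval 2.66 to 22.6), against 4.66%. Both of these intervals, too, contained the other genes' shares. Peaks that overlap each other were counted as separate. Thra reached 4 summits and Nr1h2 reached 2 only through such a pair.

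**Figure D1:**
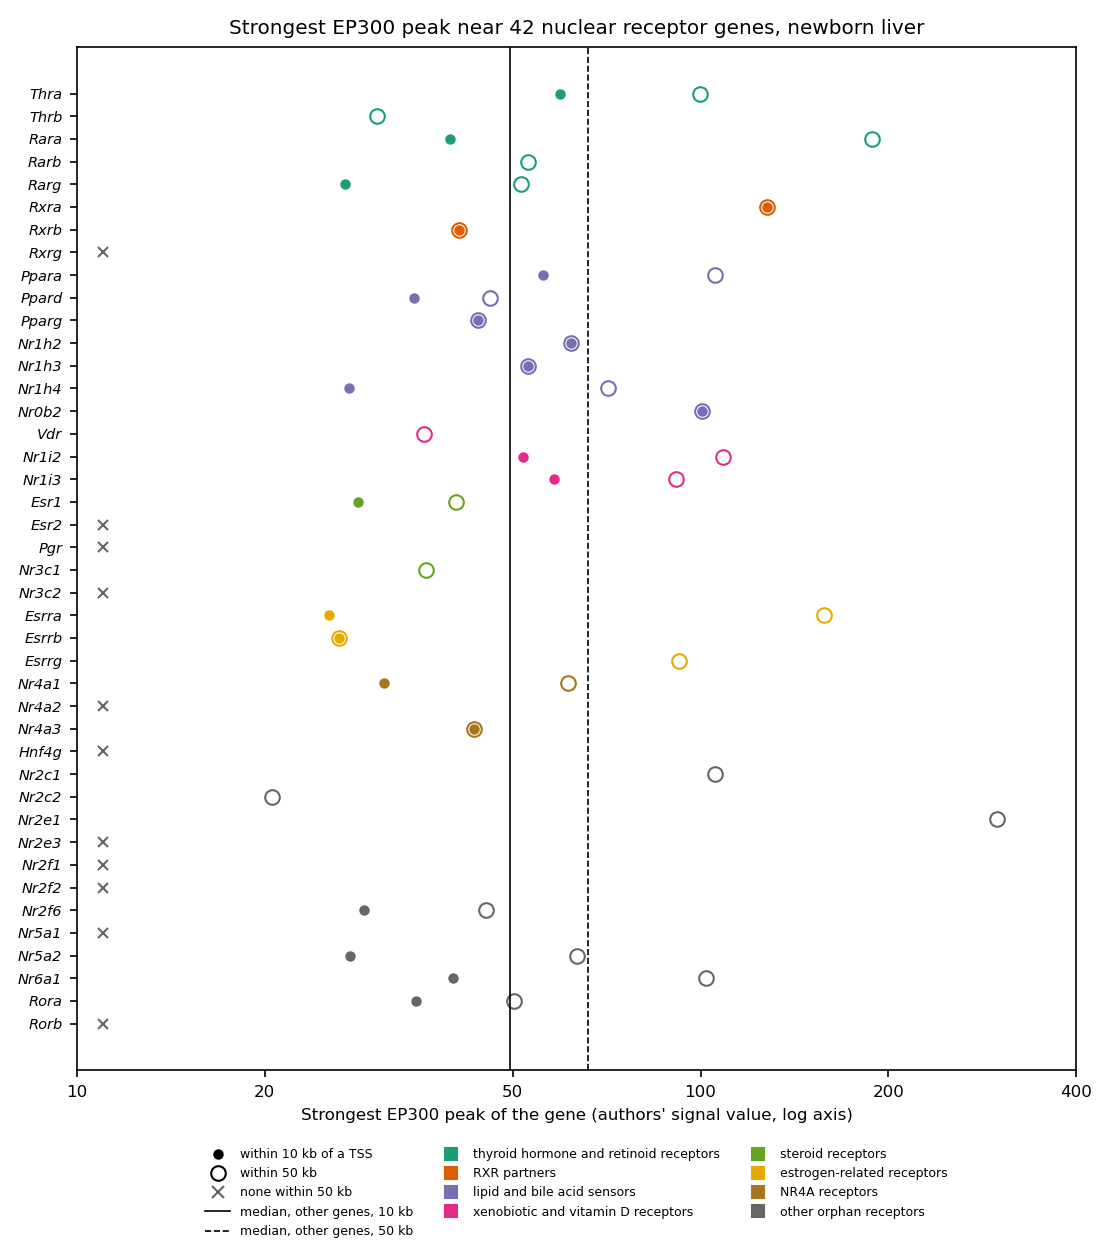
Signal value of the strongest EP300 peak near each of 42 nuclear receptor genes, on a log axis, within 10 kb of a TSS (filled) and within 50 kb (open), with colours for the receptor classes, crosses for members with none within 50 kb and lines for the medians of other genes. Rxra at 127.9 and Nr0b2 at 100.6 lead within 10 kb, and 11 members carry a cross.

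The members were counted by class, beside the 38.1% of other genes with a summit within 10 kb. All 7 lipid and bile acid sensor genes had a summit within 10 kb in the optimal list, with strongest signals of 27.3 to 100.6, but Nr1h3 had none in the conservative list and Nr1h3 and Nr1h4 none among the highest peaks of replicate 2. Thyroid hormone and retinoid receptors had 3 of 5, RXR partners 2 of 3, and xenobiotic and vitamin D receptors 2 of 3. Estrogen-related receptors had 2 of 3 and NR4A receptors 2 of 3. Steroid receptors had 1 of 5, and other orphan receptors 4 of 13. The classes hold 3 to 13 genes and no difference between them was tested.

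To show what the strongest of these sites look like, the 101 bases around the summit are given here for the members with the highest signals, on the plus strand of mm10. Capitals mark matches of the 14 binding elements searched, which are spelled out further on, and of the GATA element with T as its first base, added after the windows were seen. The window of Nr1h3 is left out because it lies in a transcribed untranslated exon of its neighbour.
Rxra, chr2:27703395-27703495: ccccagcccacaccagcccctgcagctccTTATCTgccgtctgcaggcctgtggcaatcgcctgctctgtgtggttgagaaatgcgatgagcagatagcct
Nr0b2, chr4:133557509-133557609: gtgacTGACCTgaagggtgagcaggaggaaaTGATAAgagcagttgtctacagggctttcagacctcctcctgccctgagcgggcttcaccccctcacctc
Nr1h2, chr7:44553949-44554049: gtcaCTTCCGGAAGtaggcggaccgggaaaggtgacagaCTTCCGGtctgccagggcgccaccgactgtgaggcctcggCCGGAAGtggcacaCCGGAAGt
Thra, chr11:98755051-98755151: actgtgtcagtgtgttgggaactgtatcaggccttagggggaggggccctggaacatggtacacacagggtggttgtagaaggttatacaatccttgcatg
Nr1i3, chr1:171204375-171204475: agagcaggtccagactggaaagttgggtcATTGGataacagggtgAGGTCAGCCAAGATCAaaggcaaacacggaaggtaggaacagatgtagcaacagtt
Ppara, chr15:85732816-85732916: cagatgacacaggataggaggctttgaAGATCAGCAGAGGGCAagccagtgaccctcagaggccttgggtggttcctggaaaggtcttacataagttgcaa
Nr1i2, chr16:38287931-38288031: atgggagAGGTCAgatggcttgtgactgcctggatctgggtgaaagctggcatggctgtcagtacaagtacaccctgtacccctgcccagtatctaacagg
The capitals are a GATA element in Rxra, a receptor hexamer and a GATA element with T first in Nr0b2, ETS elements in Nr1h2, an NF-Y element and a direct repeat with a spacing of 4 in Nr1i3, such a direct repeat in Ppara, and a hexamer in Nr1i2. The window of Thra held none of the elements.

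Rxra, which encodes the main retinoid X receptor of liver and the partner of most metabolic receptors, carried the strongest summit within 10 kb of any member. The gene lies at chr2:27676440-27762957 on the plus strand. Its summit at position 27703445 had a signal of 127.9 and ranked 2519 in the list, in an intron and 5.85 kb upstream of the nearest of its 5 TSSs. Replicate 1 gave it 78.7 and replicate 2 gave it 47.1. Further Rxra summits within 10 kb lay 0.317 kb upstream (26.2) and 3.77 kb downstream of a TSS (28.95). Beyond 10 kb, Rxra had intronic summits of 35.9 and 55.1 and an intergenic one of 65.65, and it was the nearest gene of all 6 summits within 50 kb.

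Of the remaining RXR genes, Rxrb had a summit near the list's median strength. Rxrb (chr17:34031812-34038399) had 1 summit within 10 kb, of 40.9, which lay 0.166 kb upstream of it but 0.016 kb from a TSS of Slc39a7, a zinc transporter gene. Replicate 1 gave this peak 33.2, and no peak of replicate 2 overlapped it. Rxrg, the form known from muscle and brain, had none within 50 kb, and its nearest summit stood 50.3 kb away with a signal of 18.9.

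Among the lipid and bile acid sensors, Nr0b2 had the strongest summit within 10 kb. Nr0b2 (chr4:133553376-133556536, plus strand) encodes SHP, a corepressor without a DNA-binding domain that is induced by the bile acid receptor and represses bile acid synthesis. Its strongest summit lay 4.18 kb downstream of the TSS, past the end of this short gene, at 100.6, with 61.5 in replicate 1 and 38.2 in replicate 2. A promoter summit 0.099 kb upstream had 42.3, with 32.7 in replicate 1 and 11.7 in replicate 2. The stretch downstream held more, with 54.05 at 10.05 kb, 49.2 at 16.1 kb and 90.8 at 17.0 kb. The TSS of Gpatch3 was nearer to the last of these and to the summit of 49.2, and Gpatch3's own promoter held a summit of 88.5.

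The genes of the oxysterol receptors, LXR alpha and LXR beta, were marked in different ways. Nr1h2 (LXR beta, chr7:44549616-44553951, minus strand) had a promoter summit of 62.0 located 0.05 kb upstream, with 47.5 in replicate 1 and 14.5 in replicate 2. A second Nr1h2 summit, of 19.4, lay 0.251 kb upstream and overlapped the same replicate peaks. Nr1h3 (LXR alpha, chr2:91184061-91202834, minus strand) had 1 summit within 10 kb, of 52.9, with 45.8 in replicate 1 and 7.69 in replicate 2. That summit, just past the 5′ end of Nr1h3, was 7.74 kb upstream of the nearest protein-coding transcript start of Nr1h3 and 0.007 kb from the TSS of Acp2, a lysosomal acid phosphatase gene. None of the 6 summits within 50 kb of Nr1h3 had Nr1h3 as its nearest gene.

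Of the sensor genes, Ppara, the fatty acid sensor that drives fatty acid oxidation, had the most summits within 10 kb. The gene lies at chr15:85734983-85802819 on the plus strand, and 4 summits within 10 kb had signals of 55.8, 19.7, 33.0 and 44.0. The strongest of them, 2.70 kb upstream, had 32.8 in replicate 1 and 21.4 in replicate 2. Higher signals stood inside the gene, with 105.3 at 35.3 kb (72.6 in replicate 1 and 33.4 in replicate 2) and 84.75 at 35.9 kb (55.3 in replicate 1 and 30.98 in replicate 2). In all, 7 summits lay inside the gene, but the peak of 105.3 and one of 28.1 overlapped each other and the same replicate peaks.

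A more distant Ppara summit held elements of several hepatocyte factors together. It stood in the gene 51.5 kb from a TSS, with a signal of 76.0, and had 41.6 in replicate 1 and 34.6 in replicate 2. Its window is shown with the Nr0b2 summit of 90.8, both chosen after their values were seen because each held a FOXA element beside a receptor hexamer.
Ppara, chr15:85787590-85787690: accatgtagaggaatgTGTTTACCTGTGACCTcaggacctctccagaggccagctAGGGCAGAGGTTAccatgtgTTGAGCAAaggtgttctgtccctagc
Nr0b2, chr4:133570304-133570404: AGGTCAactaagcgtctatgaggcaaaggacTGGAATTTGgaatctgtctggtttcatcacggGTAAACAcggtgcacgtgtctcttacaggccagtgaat
In Ppara the capitals are, from the 5′ end, a FOXA element that overlaps a direct repeat with a spacing of 1, a further direct repeat of that kind and a C/EBP element. In Nr0b2 they are a hexamer, an HNF4 element and a FOXA element.

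Pparg and Ppard, which encode the master factor of fat cells and a widely expressed fatty acid sensor, had summits close to their TSSs. Pparg (chr6:115360951-115490399, plus strand) had intronic summits of 27.2, 43.6 and 43.9 within 10 kb, and the strongest had 28.6 in replicate 1 and 14.6 in replicate 2. Ppard had a summit of 34.7 located 0.072 kb upstream. Nr1h4, which encodes the bile acid receptor FXR, had 27.3 at 1.35 kb and its strongest summit within 50 kb, of 71.0, in its own body at 47.7 kb, where the TSS of Gas2l3 was nearer.

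Among the xenobiotic receptors, Nr1i2 was marked from its promoter into its introns, while Nr1i3 stood among neighbours. Nr1i2 (chr16:38248323-38294824, minus strand) encodes PXR, the receptor for drugs and other foreign compounds. Its 4 summits within 10 kb had 32.6 at the promoter, 52.0 at 6.84 kb, 16.0 at 7.36 kb and 21.4 at 8.80 kb. The summit of 52.0 had 39.2 in replicate 1 and 13.8 in replicate 2. The strongest intronic summit, 14.9 kb downstream, reached 108.6, with 75.3 in replicate 1 and 33.75 in replicate 2, and all 7 summits within 50 kb were nearest to Nr1i2.

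Nr1i3 (chr1:171213970-171220701, plus strand) encodes CAR, the partner of PXR in the control of drug metabolism. Its strongest summit within 10 kb, 9.55 kb upstream, had 58.3, with 33.5 in replicate 1 and 23.8 in replicate 2, but the TSS of Pcp4l1 was nearer. Summits of 20.7 and 15.4 stood at the promoter of its neighbour Tomm40l, and one of 54.5 stood at the promoter of the apolipoprotein gene Apoa2 at 11 kb. None of the 7 summits within 50 kb was nearest to Nr1i3. Vdr, the vitamin D receptor gene, had none within 10 kb, and its nearest, of 36.05, lay in its body 31.5 kb from a TSS.

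Thyroid hormone and retinoic acid receptor genes had several summits at their alpha members. Thra (chr11:98740638-98769006, plus strand) had 4 summits within 10 kb, all intronic, with signals of 30.8, 20.65, 59.6 and 22.7, of which the first 2 overlapped each other and the same replicate peaks. The strongest had 36.4 in replicate 1 and 19.1 in replicate 2. Higher summits of 70.0 and 99.8 downstream of Thra were nearest to Nr1d1, the clock repressor gene downstream of it. The thyroid hormone receptor beta gene Thrb, the main form of adult liver, had none within 10 kb, yet 6 summits of 22.3 to 35.8 lay inside this gene of 377.8 kb, the nearest at 20.8 kb (27.0).

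Rara (chr11:98927818-98974942, plus strand), the retinoic acid receptor alpha gene, had 5 summits within 10 kb, with signals of 26.2, 39.7, 25.8, 13.4 and 32.1. The peaks of 25.8 and 13.4 overlapped each other and the same replicate peaks, so that 4 separate sites remain. The summit of 39.7 had 34.3 in replicate 1 and was overlapped by no peak of replicate 2. Within 50 kb the highest was 188.5, with 116.7 in replicate 1 and 67.4 in replicate 2, in an exon of Wipf2 and nearest to the replication gene Cdc6. Rarb, the beta gene, had its nearest summit at 12.6 kb in an intron (52.9), and Rarg, the gamma gene, had 1 summit of 26.9 at a TSS.

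**Figure D2:**
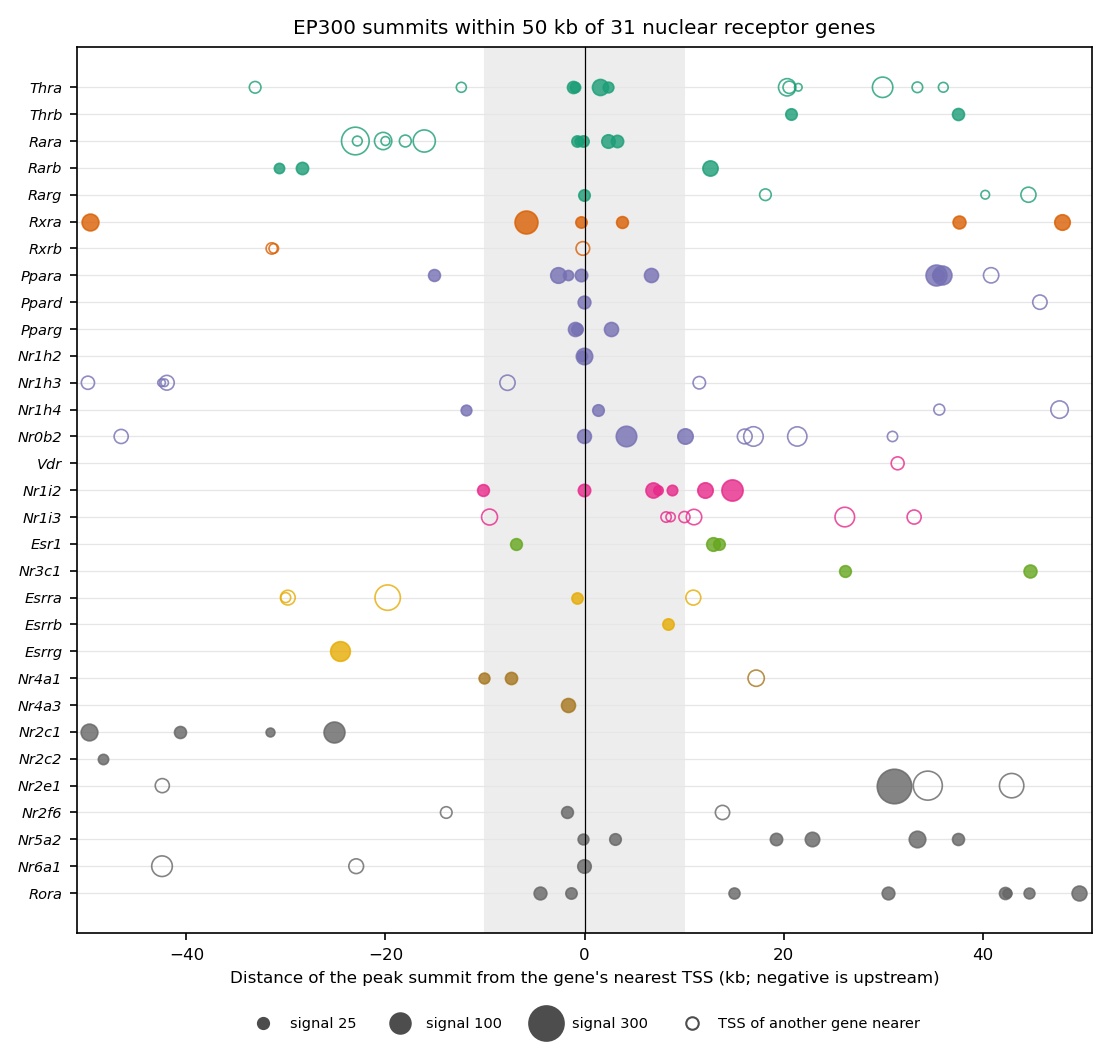
Position of each of the 135 EP300 summits within 50 kb of a TSS of 31 nuclear receptor genes, in kb from that gene's nearest TSS, with circle area rising with the signal value, class colours as in the plot of strongest peaks, and open circles where another gene's TSS is nearer. Ppara and Nr1i2 carry mainly filled circles, while the circles of Nr1i3 and Nr1h3 are open.

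Among steroid receptor genes, Esr1 was the member with a summit within 10 kb. Esr1, the main estrogen receptor gene of liver, had 1 summit of 28.3 located 6.87 kb upstream, with 9.86 in replicate 1 and 20.4 in replicate 2, and intronic summits of 40.5 and 27.0 at 12.9 and 13.55 kb. Nr3c1, the glucocorticoid receptor gene, had none within 10 kb, its nearest being 28.3 at 26.2 kb, and the strongest of 5 inside the gene was 71.7 at 56.5 kb. The mineralocorticoid receptor gene Nr3c2 had 1 summit in its body of 345.6 kb, at 136.8 kb, with 80.6. Esr2, the estrogen receptor beta gene, and Pgr, the progesterone receptor gene, had none within 50 kb. Their nearest summits were at 64.1 kb (109.0) and 312.6 kb (20.3), nearest to Tex21 and Arhgap42.

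The estrogen-related receptors, orphan regulators of energy metabolism and, for Esrrb, of stem cells, had summits below the list's median signal within 10 kb at Esrra and Esrrb. Esrra had 25.4 at 0.729 kb, with 10.02 in replicate 1 and 14.7 in replicate 2, and a summit of 157.9 at 19.8 kb that sat in the promoter of Gpr137. Esrrb had 26.3 at 8.43 kb. Esrrg had none within 10 kb, but an intergenic summit of 92.4 lay 24.6 kb upstream, with 54.1 in replicate 1 and 37.3 in replicate 2.

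The NR4A genes, immediate early genes that respond to many stimuli, were marked at Nr4a1 and Nr4a3. Nr4a3 (chr4:48045153-48086447, plus strand) had 1 summit, of 43.3, at 1.62 kb upstream, with 35.3 in replicate 1 and 7.38 in replicate 2. Nr4a1 had 31.1 at 7.37 kb upstream, and its strongest within 50 kb, 61.2, stood at the promoter of Atg101. Nr4a2 had none within 50 kb, and the nearest, of 73.2, lay 128.8 kb away.

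Among the other orphan receptors, Nr6a1, Rora, Nr2f6 and Nr5a2 had summits within 10 kb. Nr6a1, which encodes a repressor of pluripotency genes, lies at chr2:38723370-38927688 on the minus strand and had a promoter summit of 40.0, with 28.85 in replicate 1 and 12.7 in replicate 2. Rora, a clock and lipid regulator, had 35.0 at 4.44 kb and 26.1 at 1.34 kb. Nr2f6 had 28.8 at 1.72 kb. Nr5a2, which encodes LRH1, a regulator of bile acid and cholesterol genes, had 27.4 at 3.04 kb and 23.1 at the promoter, and 63.3 in an intron at 33.5 kb.

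Rora was the member with the most summits inside its body. Over 734.5 kb it held 14, and the strongest of 118.2 lay 230.2 kb from a TSS, with 83.3 in replicate 1 and 34.6 in replicate 2. Among the 14, the peaks of 30.6 and 14.0 overlapped each other and the same replicate peaks.

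Nr2e1, TLX, known from neural stem cells, had none within 10 kb but the highest summits within 50 kb of any member. The summit of 298.3 lay 31.1 kb downstream in intergenic sequence, with 184.9 in replicate 1 and 112.0 in replicate 2. Summits of 208.9 and 145.6 followed in introns of Snx3, an endosomal sorting gene whose TSS was nearer to them. The window of the strongest, shown because it tops all member summits and chosen after its value was seen, held a GATA element and an NF-Y element, in capitals.
Nr2e1, chr10:42537704-42537804: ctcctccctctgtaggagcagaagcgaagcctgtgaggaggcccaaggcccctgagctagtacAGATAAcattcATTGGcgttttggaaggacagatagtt

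The genes of the testicular receptors TR2 and TR4, which repress embryonic globin genes, had none within 10 kb. At Nr2c1 (TR2) the nearest was 105.3 at 25.2 kb upstream in an intron of Fgd6, with 65.9 in replicate 1 and 37.4 in replicate 2. At Nr2c2 (TR4) it was 20.6 at 48.4 kb. The orphan receptor genes with none within 50 kb were Hnf4g, Nr2e3, Nr2f1, Nr2f2, Nr5a1 and Rorb. Their nearest summits lay at 5001 kb for Hnf4g (24.7), 277.5 kb for the photoreceptor factor Nr2e3 (63.9), 283.6 kb for Nr2f1 (25.3), 158.2 kb for Nr2f2 (25.6), 68.3 kb for the steroidogenic factor Nr5a1 (36.9) and 288.1 kb for Rorb (38.6).

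In all, 19 members had no summit within 10 kb. Of these, 11 had none within 50 kb, namely Rxrg, Esr2, Pgr, Nr3c2, Nr4a2, Hnf4g, Nr2e3, Nr2f1, Nr2f2, Nr5a1 and Rorb. The other 8 were Thrb, Rarb, Vdr, Nr3c1, Esrrg, Nr2c1, Nr2c2 and Nr2e1. Rarb, with its nearest summit at 12.6 kb, came closest to the limit of 10 kb, and Esrrb, at 8.43 kb, and Nr1i3, at 8.20 kb, had the farthest nearest summits inside it. At the limit of 50 kb, Nr2c2 lay inside with 48.4 kb and Rxrg outside with 50.3 kb.

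The comparison with other genes was repeated over a range of distances. Within 1 kb of a TSS, 14 of 42 members had a summit (33.3%), against 22.2% of other genes. The members' share stayed above that of other genes at each of the 11 distances computed, reaching 88.1% against 84.3% within 200 kb. Their median strongest signal stayed below that of other genes at the same distances, though at 100 kb the values were 84.32 for members and 84.36 for other genes.

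**Figure D3:**
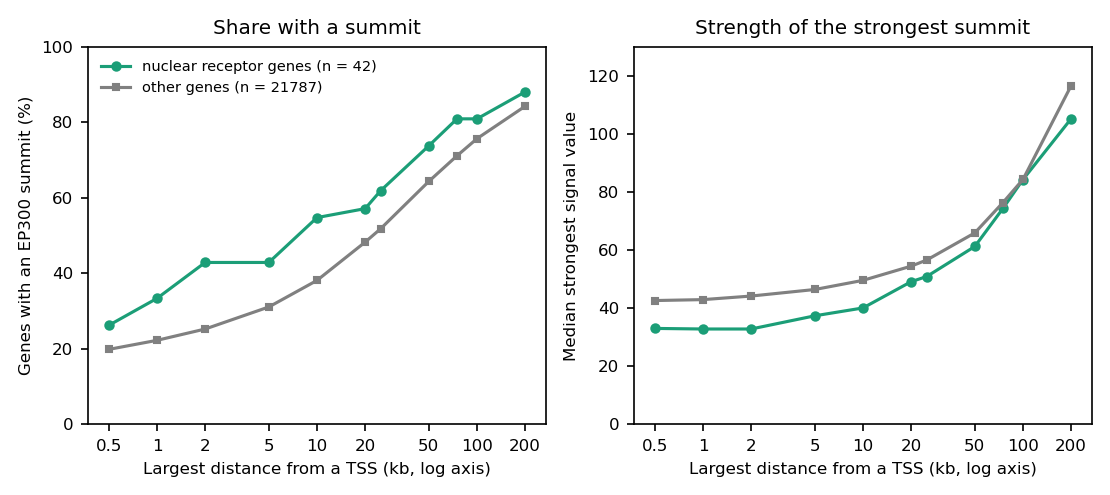
Share of genes with an EP300 summit (left) and median signal value of the strongest summit of the genes that have one (right) for 42 nuclear receptor genes and 21787 other genes, against the largest distance from a TSS in kb on a log axis. The members' share is the higher at every distance plotted and their median the lower, with the medians nearly equal at 100 kb.

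Gene structure differed between members and other genes. Among other genes the share with a summit within 10 kb rose with the number of TSSs, while among the few members per group it did not rise steadily. Members had a median of 3.5 TSSs and a length of 52.7 kb, while other genes had 2.0 TSSs and 17.3 kb. Members had a median of 0 other genes within 50 kb, against 2 for other genes. Among genes with 2 to 3 TSSs, 8 of 18 members had a summit within 10 kb (44.4%), against 37.1% of other genes. With 4 to 6 TSSs it was 12 of 19 members (63.2%), against 52.9%. With 1 TSS, 2 of 3 members had one, against 30.4%, and with 7 or more 1 of 2 members, against 61.1%. The part of gene structure in the difference was not tested.

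Summits inside gene bodies were counted beside those of all other genes and of other genes in the middle range of member lengths. A summit lay inside 19 of 42 members (45.2%), against 29.9% of other genes. Other genes within the middle range of member lengths, from the lower to the upper quartile, had 42.1%, with a median length of 39.9 kb against 52.7 kb for members. Per 100 kb of gene, members held 1.48 summits, other genes 1.43 and the other genes of the middle range 1.88. Only the other genes were restricted by length. All 42 members were kept, with Rora at 734.5 kb and Esrrg at 606.1 kb among them, so these values do not compare genes of equal length.

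The 46 summits within 10 kb of members had lower values than the list as a whole in strength and in replicate overlap. Their median signal was 29.9, against 38.1 for all 12626 summits within 10 kb of a protein-coding TSS and 38.3 for the whole list. A peak that was among the 26844 highest of both replicates overlapped 21 of 46 member peaks (45.65%, interval 30.9 to 61.0), against 67.9% of all optimal peaks. Taken singly, 35 of the 46 overlapped such a peak in replicate 1 and 30 in replicate 2. No peak at all overlapped 4 of them in replicate 2 and 1 in replicate 1. Promoters held 21 of the 46 (45.65%), against 44.4% of all summits within 10 kb of a TSS. Within 50 kb of members, 80 of 135 peaks overlapped one of the highest of both replicates (59.3%, interval 50.5 to 67.6). That overlap counts only the highest replicate peaks, so it is not independent of strength.

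Replicate 1 gave higher signals than replicate 2 at members and elsewhere. The median signals of the overlapping replicate peaks were 22.4 in replicate 1 and 11.98 in replicate 2 for summits within 10 kb of members, and 27.5 and 14.0 for all optimal peaks. The median log2 ratio of replicate 1 over replicate 2 was 0.97 at member summits and 0.95 over the list. Over members with a summit, the strongest peak within 10 kb had a median of 28.85 in replicate 1 and 14.1 in replicate 2 (SD 10.4, n = 2), and the scale of the replicate lists is not stated. The strongest peaks of Rara, Rxrb and Nr5a2 were overlapped by no peak of replicate 2 and enter the replicate 1 median only. The SD is thus between medians of unlike sets of members.

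**Figure D4:**
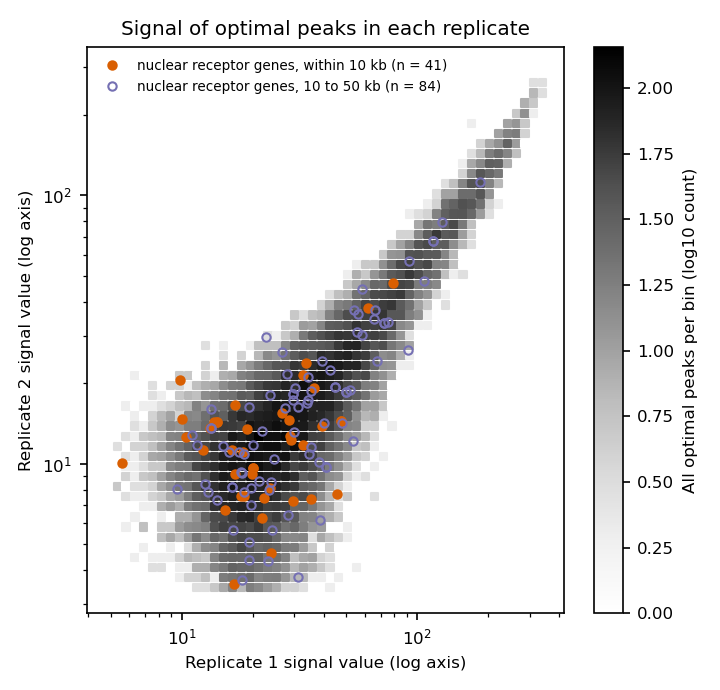
Signal value of the overlapping peak in replicate 1 and in replicate 2, both on log axes, for 41 member summits within 10 kb and 84 from 10 to 50 kb (circles), over the density of all optimal peaks in grey. Member summits follow the band of the list, and those within 10 kb lie mostly in its lower part.

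Which members counted as marked depended on the list. In the conservative IDR list, 17 of the 23 members had a summit within 10 kb. Rarg, Rxrb, Nr1h3, Esr1, Esrra and Nr4a3 had none there, while Rarb and Nr2f2 had one. Among the highest peaks of replicate 1, 20 of the 23 were marked, without Rarg, Esr1 and Esrra, and Nr3c1, Nr3c2 and Nr2c2 were added. Among those of replicate 2, 16 were marked, without Rarg, Rxrb, Nr1h3, Nr1h4, Esrrb, Nr4a3 and Nr5a2, and Thrb, Rarb and Nr2f2 were added. No member outside the 23 was marked in both replicates.

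A nearby TSS does not show which gene a site serves, and many member summits stood nearer to another gene. Within 10 kb the member was the nearest gene for 41 of 46 summits, and within 50 kb for 80 of 135. The strongest summit was nearest to the member itself for 20 of 23 members within 10 kb and for 18 of 31 within 50 kb. The exceptions within 10 kb were Rxrb, Nr1h3 and Nr1i3.

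Sequence around member summits was searched for elements of the receptors and of other liver and blood factors. Windows of 101 bases were searched on both strands, and a match is only a description of the letters. The receptor hexamer AGGTCA was in 7 of 46 windows within 10 kb (15.2%, interval 6.34 to 28.9) and 15 of 135 within 50 kb (11.1%), against 9.12% of all optimal peaks. The summits within 10 kb with a hexamer were at Ppara, Nr0b2, Nr1i2, Nr1i3, Esrrb, Nr2f6 and Nr6a1. The direct repeat with a spacing of 4, AGGTCA, any 4 bases and AGGTCA, with up to 2 mismatches, known for RXR with LXR or the thyroid hormone receptor, was in 3 of 46 (6.52%, interval 1.37 to 17.9), at Ppara, Nr1i3 and Nr2f6. All optimal peaks had it in 1.33%, and member windows within 50 kb in 5 of 135 (3.70%, interval 1.21 to 8.43). A hexamer can be part of such a repeat, so these counts overlap.

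The other receptor elements had low shares within 50 kb, some below and some above those of the list. The direct repeat with a spacing of 1, AGGTCA, any 1 base and AGGTCA, with up to 2 mismatches, known for RXR with PPAR and for HNF4, was in 0 of 46 and 2 of 135 (1.48%), against 2.65%. The inverted repeat of FXR, AGGTCA, any 1 base and TGACCT, with up to 2 mismatches, was in 0 of 135, against 0.887%. In windows of 100 bases on each side, the direct repeat was in 7 of 135 (5.185%, all optimal peaks 5.29%). The inverted repeat was in 2 of 135 there (1.48%, all optimal peaks 1.71%). The steroid element, AGAACA, any 3 bases and TGTTCT, with up to 2 mismatches, was in 0 of 46 and 5 of 135 (3.70%), against 2.15%, and its matches included intronic summits of Rxra and Esr1. The HNF4 element CAAAGTCCA, with 1 mismatch allowed, was in 4 of 46 (8.70%, interval 2.42 to 20.8) and 9 of 135 (6.67%), against 5.8%.

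GATA elements, bound by the factors that direct red cell and megakaryocyte genes among others, had lower shares at members than in the list. AGATAA was in 1 of 46 windows within 10 kb (2.17%, interval 0.0550 to 11.5), at Rxra, and in 15 of 135 within 50 kb (11.1%, interval 6.35 to 17.7), against 22.3% of all optimal peaks. Of all summits within 10 kb of a TSS 18.1% held it, and of those below the list's median signal 11.6% did. When T was also allowed as the first base, a choice made after the windows were seen, 4 of 46 (8.70%, interval 2.42 to 20.8) and 23 of 135 (17.0%, interval 11.1 to 24.5) had a match, against 32.8%. The 4 were at Rxra, Pparg, Nr0b2 and Nr5a2. For summits within 10 kb and below the median signal that share was 17.5%, and the part of signal strength in the difference was not tested.

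Elements common at promoters had higher shares within 10 kb of members than in the list, and so did C/EBP and HNF4. Of these, only SP1 and KLF had an interval that left out the list's share. Among summits of the conservative list within 50 kb, HNF4 had 5.77% against 5.80%, and C/EBP had 4.81% against 4.465%. The SP1 and KLF element GGGCGG was in 11 of 46 windows (23.9%, interval 12.6 to 38.8), against 6.71% of all peaks and 11.1% of those within 10 kb of a TSS. These windows were at Thra, Rara, Rxrb, Ppard, Nr1h3, Nr1i3, Esrrb and Nr4a1. Rara and Nr1i3 had more than 1 each, and the interval counts them as separate. At Rxrb, Nr1h3 and Nr1i3 another gene's TSS was nearer. The ETS element CCGGAAG was in 4 of 46 (8.70%, interval 2.42 to 20.8), against 2.76% and 4.63%, and the NF-Y element CCAAT in 8 of 46 (17.4%, interval 7.82 to 31.4), against 13.1% and 14.7%. For ETS and NF-Y the interval contained the share of all peaks near a TSS. Among summits within 50 kb, NF-Y was in 7 of 44 at promoters (15.9%), against 17.7% of all promoter peaks. Away from promoters it was in 18 of 91 (19.8%), against 11.8%. The AP-1 element TGANTCA was in 0 of 135, which allows up to 2.70% by the 95% interval, against 5.62%. FOXA (TGTTTAC) was in 5 of 135 (3.70%), against 3.06%. C/EBP (TTGCGCAA, 1 mismatch allowed) was in 4 of 46 (8.70%, interval 2.42 to 20.8) and 8 of 135 (5.93%), against 4.44% of all peaks. Of all peaks within 10 kb of a TSS 4.09% held it. HNF1 (GTTAAT, any 1 base and ATTAAC, up to 2 mismatches) was in 2 of 135 (1.48%), against 0.842%.

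**Figure D5:**
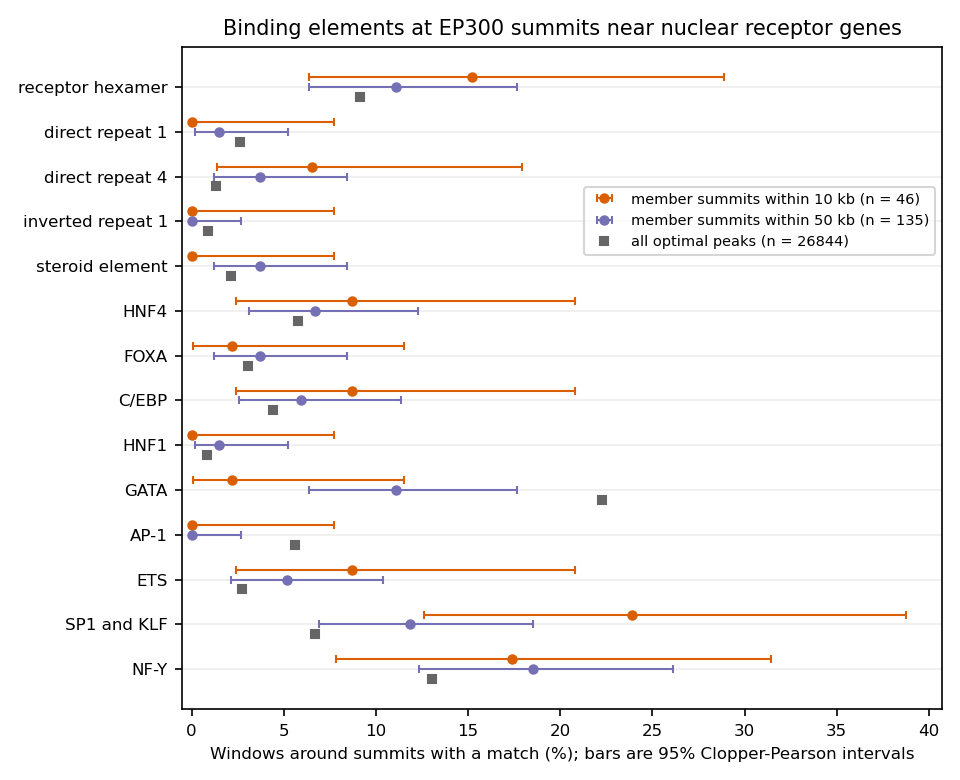
Share of windows of 101 bases with a match of each of 14 binding elements, for 46 member summits within 10 kb, 135 within 50 kb (bars are 95% Clopper-Pearson intervals) and all 26844 optimal peaks. The GATA share of member summits lies below that of all peaks, and the SP1 and KLF share within 10 kb lies above it.

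Promoters of members were searched in the same way from the RefSeq table (GRCm38.p6), which matched 38 of 42 members with 58 windows. A hexamer was in 10 of 58 member windows of 300 bases (17.2%), against 16.3% of 32851 windows of all genes. EP300 summits lay in 9 of these windows, of 8 genes. The 250 bases before the start are printed for the genes among them that held a receptor hexamer or an HNF4 element, on the gene's own strand, which is minus for each, with matches of the same elements, the GATA element with T first included, in capitals.
Nr6a1, chr2:38784516-38784765: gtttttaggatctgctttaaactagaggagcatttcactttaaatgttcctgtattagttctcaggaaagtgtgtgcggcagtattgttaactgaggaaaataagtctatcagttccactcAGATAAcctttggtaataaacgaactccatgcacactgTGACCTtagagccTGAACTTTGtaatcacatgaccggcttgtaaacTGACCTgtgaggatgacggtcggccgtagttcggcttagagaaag
Nr1i2, chr16:38294825-38295074: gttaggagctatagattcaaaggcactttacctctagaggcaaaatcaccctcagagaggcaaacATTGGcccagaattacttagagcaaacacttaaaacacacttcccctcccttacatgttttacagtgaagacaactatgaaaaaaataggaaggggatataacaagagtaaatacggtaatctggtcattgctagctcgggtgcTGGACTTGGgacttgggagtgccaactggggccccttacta
Nr5a2, chr1:136960449-136960698: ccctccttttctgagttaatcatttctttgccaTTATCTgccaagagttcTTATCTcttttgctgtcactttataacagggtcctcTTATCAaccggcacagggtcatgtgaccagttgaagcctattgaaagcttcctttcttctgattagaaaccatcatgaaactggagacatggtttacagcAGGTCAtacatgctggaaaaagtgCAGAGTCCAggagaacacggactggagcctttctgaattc
Nr6a1 has GATA, hexamer and HNF4 elements, Nr1i2 an NF-Y and an HNF4 element, and Nr5a2 GATA elements, a hexamer and an HNF4 element. The summits in these windows had signals of 40.0 at Nr6a1, 32.6 at Nr1i2 and 23.1 at Nr5a2.

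Genes that work with the receptors were marked as well. Of 20 coregulator genes 13 had a summit within 10 kb (65%), against 38.1% of the genes outside the receptor set, with a median strongest signal of 51.03, against 49.55. Within 50 kb 18 of 20 had one, against 64.4%, with a median of 86.85, against 65.9. The strongest were at Nrip1, a corepressor of metabolic receptors (284), Med1, the mediator subunit that binds liganded receptors (266), Kmt2d (193), Gps2 (173) and Ncor1, the nuclear receptor corepressor (172). They lay 9.18, 9.40, 9.41, 0.379 and 6.35 kb from a TSS, and their nearest genes are not given here. Nrip1, Med1 and Kmt2d had nearer and weaker summits at 0.106, 0.002 and 0.436 kb. Crebbp, the paralogue of EP300, had none within 10 kb, nor did Hdac3, Kdm1a, Ncoa2, Ncoa3, Ncoa6 and Ppargc1b. The difference from the receptor genes, 54.8% with a median of 40.0, was not tested. This coregulator list was chosen with earlier results of these data known, so its shares are a description only.

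Known target genes of the receptors had 26 of 34 with a summit within 10 kb (76.5%), against 38.1% of the genes outside the receptor set, with a median of 60.95, against 49.55. Within 50 kb 34 of 34 had one, against 64.4%, with a median of 117.8, against 65.9. The strongest were at Ugt1a1, which conjugates bilirubin and drugs (299.6), Klf9 (221), the clock gene Per1 (217), the lipid droplet gene Plin2 (178) and Angptl4, an inhibitor of lipoprotein lipase (173). They lay 4.645, 5.30, 1.85, 1.59 and 6.97 kb from a TSS, and their nearest genes are not given here. Abcg5, Abcg8, Cyp24a1, Cyp2b10, Fabp1, Lpcat3, Slc51b and Thrsp had none within 10 kb. The target list, too, was chosen with earlier results of these data known, so its shares are a description only. Of the receptor genes outside the set, Nr1d1 (99.8), Hnf4a (99.0) and Nr1d2 (45.3) had a summit within 10 kb, while Nr0b1 had none.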

How the data were processed

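EP300 ChIP-seq of newborn mouse liver was analysed from the peak lists that the authors deposited on mm10: 1 per replicate and 1 called on both together (300000 peaks each), and the optimal and conservative IDR lists (26883 and 23700 peaks, of which 26844 and 23673 lay on chromosomes 1 to 19, X and Y). Column 7 of the deposited lists is the authors' signal value, never negative and of unstated scale, and column 5 of the IDR lists is the authors' IDR score. Of the optimal peaks, 26832 have the interval, summit and signal of a pooled peak, so the signal adds nothing independent to the replicates. Per the file headers and descriptions, the lists were made from alignments with a control. Neither aligner nor peak caller, nor the IDR threshold, is named by them: these were not given in the sources used here. No list gives read counts, so depth is unknown. Columns belonging to another series numbered 0.

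TSSs and gene models came from GENCODE M21 and sequence from GRCm38, the assembly of mm10, and on 21 of 21 chromosomes all peaks lay inside the reference. GENCODE M21 has 21829 protein-coding symbols from 21853 gene IDs. Coordinates are 1-based. A replicate's value at a peak is the strongest replicate peak that overlaps by at least 1 base. Elements were searched in the 50 bases on each side of a summit. Shares have 95% Clopper-Pearson intervals. No test across genes was run, because there is 1 group and genes are not replicates, and members are set beside all other genes as a description. All 42 members are accounted for, with replicate values for the 12 with the strongest summit within 10 kb, for those with 4 or more summits, and for others chosen after their values were seen: the strongest distal summits, and Esr1 and Esrra, where replicate 2 was the higher. The members, gene lists and elements were chosen with earlier results of these data known. Counting was tested on simulated peaks. Python 3.11.15, numpy 2.4.6, pandas 2.3.3, scipy 1.17.1, pysam 0.24.0, samtools 1.23.1 and matplotlib 3.10.9 were used. Alternatives were the conservative and replicate lists, the top 50% of peaks, 1 TSS per gene, nearest TSSs only, distal summits only, other distances, other overlap rules and wider windows. Some comparison genes are not reported here.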

Additional observations from a re-analysis of the deposited data

How the results depend on the processing

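In each alternative run, the members' share with a summit stayed above that of other genes and their median strongest signal stayed below it. Within 10 kb the members' share was 30.95% (other genes 25.2%) with the top 50% of peaks, 38.1% (22.7%) with distal summits only and 33.3% (22.2%) within 1 kb, and leaving out each replicate gave 45.2 to 54.8% (37.75 and 40.8%). The conservative list gave 45.2% (34.5%). In 7 of 9 alternatives within 10 kb, among them the conservative list, leaving out each replicate and 1 TSS per gene, the other genes' share lay inside the members' 95% interval, and it lay outside with nearest TSSs only and with distal summits only. Within 50 kb it lay inside in 8 of 9. The median within 10 kb was 52.9 (other genes 68.5) with the top 50% of peaks, and 14.6 to 29.2 when each replicate was left out, where other genes had 16.5 and 32.9. Within 50 kb the median was 43.3 (51.1) with nearest TSSs only, 84.32 (84.36) at 100 kb, and 21.55 to 42.5 (21.9 and 44.6) when each replicate was left out, while the share ranged from 69.05 to 76.2%. Single-replicate lists carry their own signal scale, so their medians are comparable with other genes of the same list only. The share of member summits overlapping peaks of both replicates was 89.1% (all optimal peaks 95.75%) with all replicate peaks in place of the highest. Against the member windows of 101 bases within 50 kb, windows of 100 bases on each side gave 19.3% for the receptor hexamer (all optimal peaks 17.4%), 16.3% for HNF4 (10.2%), 18.5% for GATA (30.2%) and 4.44% for AP-1 (9.7%). Summits within 10 kb gave 0% for the direct repeat with a spacing of 1, the steroid element and HNF1, 2.17% for GATA and 23.9% for SP1 and KLF. The causes were not tested. No paired analysis was possible because there is only 1 group. With 42 genes the 95% interval of the share within 10 kb runs from 38.7 to 70.2%, which limits what a list of this size can show. Rarg had no summit within 10 kb in the conservative list or among either replicate's highest peaks.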
